A study of Mus musculus with 4 samples.

Results

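Liver sinusoidal endothelial cells line the capillaries of the liver lobule, where they form a fenestrated wall without a continuous basement membrane and clear waste molecules from the blood with scavenger receptors. Their identity genes are not part of the programme of hepatocytes. The 10 genes described here were chosen by name as markers of this cell type. They are the scavenger and lectin receptors Stab1, Stab2, Lyve1, Clec4g and Fcgr2b, the junction proteins Pecam1 and Cdh5, and the growth factor receptors Kdr, Tek and Eng. Every non-control probe that carried one of these names on the array was taken, which gave 19 probes for 10 of the 37072 gene names.

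Gene expression was measured with 1-colour mouse arrays in primary hepatocytes of male C57BL/6 mice, with 1 array in each of 4 groups. Control cells came from floxed Drp1 littermates, labelled as wild-type, and Drp1LiKO cells from floxed mice with Cre under the albumin promoter, which is active in hepatocytes. Each genotype was cultured without palmitate or with 200 μM palmitate, a saturated fatty acid, and cells were harvested 24 h after seeding. Hepatocytes were the pellet of a slow spin of the digested liver and were grown on collagen, with floating cells removed by a change of medium. Ages, and whether cells of several animals were pooled, are not given in the sources used here. According to its label, the untreated control array shares its raw data with a sample of another series. With no replicate in any group, the spread between animals or cultures is unknown for each difference given here. Both palmitate arrays shared a slide, and so did both untreated ones. Each slide held both genotypes, but the treatment and the slide cannot be told apart. In bulk RNA of this kind, fewer cells of a type and less RNA per cell cannot be told apart.

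The labels were checked first. Dnm1l, the gene of Drp1, read 2.42 in control and 1.07 in Drp1LiKO without palmitate, and 2.43 and 1.01 with it, whereas the glycolytic gene Gapdh differed between genotypes by −0.08 and −0.11. Levels are in log2 units throughout, each array being set to 0 at its own 75th percentile. All 11 hepatocyte markers on the array were well above background on every array. Intensities of the 75th percentile lay between 424 and 542, and no spot was saturated. By the flag of the scanner software, 27259 of 56603 probes were well above background in control and 28918 in Drp1LiKO. With palmitate these were 25306 in control and 27293 in Drp1LiKO, so more probes were measured in Drp1LiKO on each slide. Of 20614 genes, 877 (4.25%) were well above background in untreated Drp1LiKO alone. Where a probe was dim on 1 array of a pair, its fold is given as a lower bound against the lowest level of any measured probe on that array, which lay between −4.94 and −4.17. Differences are called here at 2-fold, that is 1 on the log2 scale. Spots of probes printed at least 8 times differed within an array by a median SD of 0.148 to 0.212 at intensities of 20 to 100, based on 6 to 8 probes, and of 0.0793 to 0.103 at 100 to 1000. This is spot noise only.

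All 10 genes were well above background on at least 1 array, through 14 of their 19 probes, and 6 genes (Stab1, Stab2, Kdr, Cdh5, Fcgr2b and Eng) were above it on all 4 arrays. Their brightest probes had intensities between 3.64 and 698, so several lay close to the limit of detection.

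Upstream sequences were read for the 7 genes with an entry in the RefSeq promoter table of build GRCm38.p6, which are Stab1, Stab2, Kdr, Clec4g, Fcgr2b, Tek and Eng. ETS transcription factors, among them several that act in endothelial cells, bind sites with a GGAA core, and the letters AGGAAG were therefore searched on both strands in the 250 bases before the start site. They occurred in 4 of the 7 genes (Stab1, Stab2, Clec4g and Eng), beside 29.5% of 32851 promoter windows. Kdr (2.43) and Fcgr2b (2.15), with the largest differences between genotypes measured on both untreated arrays, were without them. Stab1, with the smallest such difference (0.89), carried them. A link between the letters and these differences was not tested. The GATA motif AGATAA was in 0 of the 7 windows, beside 9.99% of all windows, and TATAAA was in 1 of the 7, that of Clec4g, beside 12.4%. A match is a description of letters and not a binding site, and the lack of a match says only that these letters are not in this window. The windows of 3 genes are shown because these genes passed 2-fold between the untreated genotypes and carry the letters at different distances, written 5′ to 3′ along the gene with AGGAAG or its reverse complement CTTCCT in capitals. The copy of Stab2 (chr10:87007943-87008192, minus strand) begins 40 bases before the start, those of Clec4g (chr8:3720652-3720901, minus strand) 123, 86 and 82 bases before it, the last pair overlapping, and those of Eng (chr2:32646345-32646594, plus strand) 52 and 6 bases before it.
Stab2: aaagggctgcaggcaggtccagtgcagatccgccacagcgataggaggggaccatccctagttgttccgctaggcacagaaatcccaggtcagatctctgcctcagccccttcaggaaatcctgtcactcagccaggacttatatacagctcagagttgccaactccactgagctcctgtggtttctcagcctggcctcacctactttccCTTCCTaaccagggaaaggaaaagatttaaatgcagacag
Clec4g: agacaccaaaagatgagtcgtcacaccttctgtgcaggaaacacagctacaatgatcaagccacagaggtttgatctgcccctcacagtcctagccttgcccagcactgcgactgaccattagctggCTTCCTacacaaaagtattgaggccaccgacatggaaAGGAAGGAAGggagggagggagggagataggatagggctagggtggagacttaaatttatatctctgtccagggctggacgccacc
Eng: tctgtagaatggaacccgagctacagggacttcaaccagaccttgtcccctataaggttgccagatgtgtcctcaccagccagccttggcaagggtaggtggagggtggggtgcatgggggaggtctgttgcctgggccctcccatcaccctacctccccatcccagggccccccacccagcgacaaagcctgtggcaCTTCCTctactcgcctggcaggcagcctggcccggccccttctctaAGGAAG

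Those of the 10 genes that were measured on both arrays of a pair were all higher in Drp1LiKO than in control, with and without palmitate. Without palmitate, 8 of the 10 genes were measured on both arrays and all 8 were higher in Drp1LiKO, by 0.89 (Stab1) to 2.43 (Kdr) on the log2 scale, and the other two were higher by a lower bound. Of the 8, 6 were at least 2-fold higher, beside 4.46% of 17652 genes measured on both arrays, and none was 2-fold lower, beside 3.34%. Their median difference was 1.80 beside −0.04 over all those genes. With palmitate, 6 genes were measured on both arrays, all 6 were higher in Drp1LiKO and 5 were at least 2-fold higher, beside 3.09% of 16784 genes, and 0 lower, beside 2.47%. Here the median was 1.53 beside −0.05. A gene that is dim in one genotype drops out of such counts. With genes measured on at least 1 array and values at background taken as they are, the counts were 8 of 10 at least 2-fold higher without palmitate (8.84% of 19874 genes) and 0 lower (5.59%), and 6 of 9 higher (7.26% of 18890 genes) and 1 lower (4.26%) with it. The lower gene was Tek. With dim values taken as bounds instead, 7 genes were at least 2-fold higher without palmitate, and 5 higher and 1 lower with it, since Tek and Lyve1 passed 2-fold in the former counts against readings at background. Since a gene measured through one genotype alone has to differ, each gene is described in turn.

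**Figure D1:**
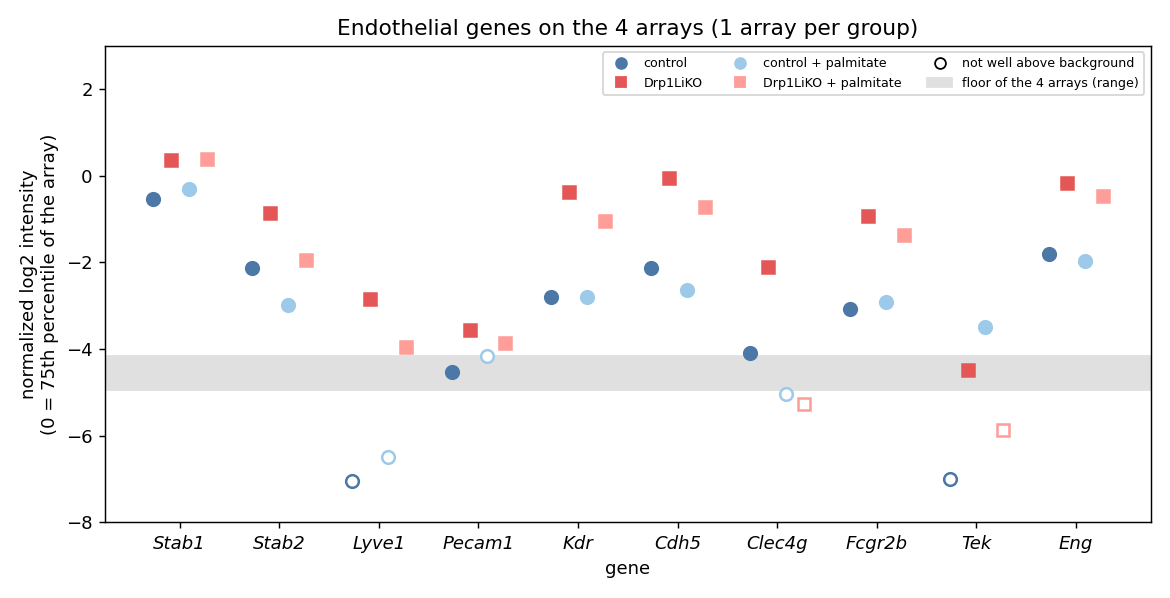
Normalized log2 intensity (0 = 75th percentile of the array) of the representative probe of each of the 10 endothelial genes on the 4 arrays, 1 array per group. Open symbols were not well above background, and the grey band spans the lowest level of measured probes on the 4 arrays, from −4.94 to −4.17. In each of the 6 genes with filled symbols only, both Drp1LiKO arrays (squares) lie above both control arrays (circles).

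Among the scavenger receptors, Stab1, a stabilin that takes up modified lipoproteins and extracellular matrix fragments and is also made by macrophages, read −0.53 in control, 0.36 in Drp1LiKO, −0.30 in control with palmitate and 0.39 in Drp1LiKO with palmitate. Both Drp1LiKO arrays were above both control arrays, and the differences of 0.89 and 0.69 were below 2-fold. Stab2, the related stabilin that clears hyaluronan, read −2.12, −0.86, −2.99 and −1.93 in the same order of arrays. Its genotype differences were 1.25 without and 1.05 with palmitate, and both genotypes were lower with palmitate, so that the Drp1LiKO array with palmitate lay only 0.18 above the untreated control array.

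Stab2 was the gene with most probes, 5 in all, at positions given here in build mm9 on the minus strand of chromosome 10. The 2 probes measured on all arrays, at 86303982 to 86304041 and 86304198 to 86304257, differed in size. The second of them read −3.30 in control, −1.17 in Drp1LiKO, −2.88 in control with palmitate and −2.63 in Drp1LiKO with palmitate, so that the genotypes differed by 2.13 without and 0.24 with palmitate, and in control its palmitate difference was 0.42 where that of the first was −0.87. On the untreated Drp1LiKO array, 3 of the 24 spots around it were lit on that array alone, against a mean of 0.608 and a 99th percentile of 4 over all spots of that array. A further probe (86381487 to 86381546) was measured on 3 arrays and was 2.13-fold higher in untreated Drp1LiKO and at least 1.31-fold higher with palmitate. A probe at 86455257 to 86455316 was measured in untreated Drp1LiKO only, at least 1.18-fold above control, and the last of the 5 was not well above background on any array. All 4 probes that were ever measured thus read higher in untreated Drp1LiKO, and the palmitate value of Stab2 depended on the probe.

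**Figure D2:**
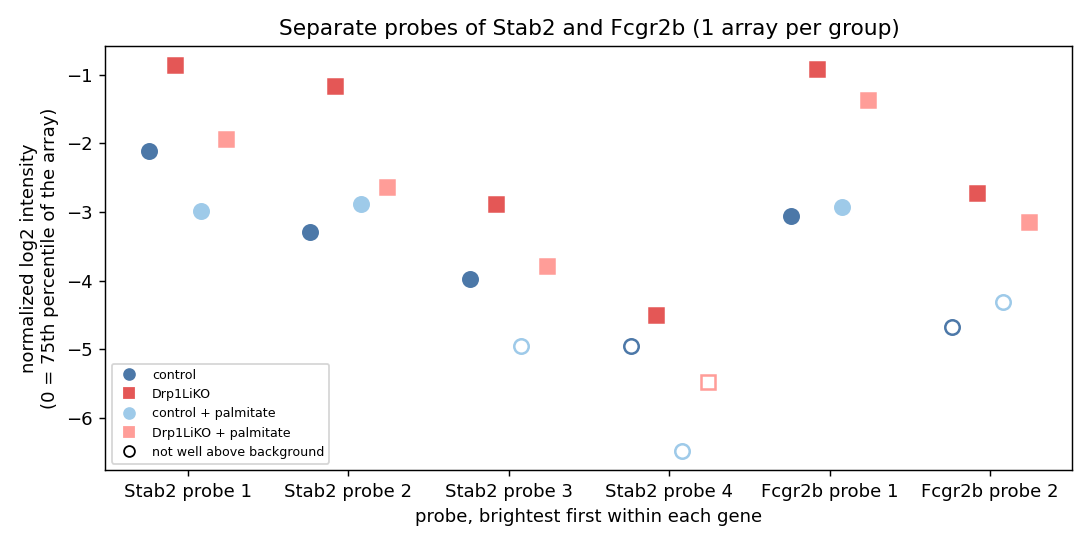
Normalized log2 intensity (0 = 75th percentile of the array) of the separate probes of Stab2 and Fcgr2b that were measured on at least 1 array, with 1 array per group and open symbols for values not well above background. The untreated Drp1LiKO array is the highest for each of the 6 probes, and the second Stab2 probe has the least separation of genotypes with palmitate among the 2 Stab2 probes measured on all arrays (0.24 against 1.05).

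Lyve1, a hyaluronan receptor of lymphatic and sinusoidal endothelium, was well above background on both Drp1LiKO arrays and on neither control array. It read −2.85 in untreated and −3.96 in palmitate-treated Drp1LiKO cells. These were at least 3.69-fold and at least 1.16-fold higher than in control, and within Drp1LiKO the palmitate difference was −1.11 on the log2 scale.

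Clec4g, a C-type lectin of sinusoidal and lymph node endothelium, was measured on the untreated arrays only, at −4.09 in control and −2.11 in Drp1LiKO, which is 1.98 higher. With palmitate it was not well above background in either genotype. Within Drp1LiKO this was at least 5.30-fold lower with palmitate than without, and in control, where the untreated level was already near the limit, at least 1.06-fold lower. A second Clec4g probe was never well above background.

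Fcgr2b, the inhibitory IgG receptor through which sinusoidal endothelium removes immune complexes, is also made by macrophages and B cells. It read −3.06 in control, −0.92 in Drp1LiKO, −2.92 in control with palmitate and −1.36 in Drp1LiKO with palmitate. The groups of the genotypes did not overlap, and the differences were 2.15 and 1.56. A second probe, placed in build mm9 at chr1:172895833-172895892 on the minus strand and shown because it gave the same direction from another stretch of the transcript, was well above background on the Drp1LiKO arrays alone, at −2.72 and −3.15, at least 3.90-fold and at least 2.03-fold higher than in control.
Fcgr2b second probe: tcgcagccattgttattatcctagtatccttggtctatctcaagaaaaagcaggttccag

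The junction genes stood on either side of the call. Cdh5, the VE-cadherin of endothelial adherens junctions, read −2.12 in control, −0.05 in Drp1LiKO, −2.63 in control with palmitate and −0.72 in Drp1LiKO with palmitate. Its genotype difference was 2.07 without and 1.91 with palmitate, the largest with palmitate of the 6 genes measured on all arrays. Pecam1, an adhesion molecule of endothelial contacts that platelets and leukocytes also carry, was dim, at −4.53 in control, −3.56 in Drp1LiKO and −3.85 in Drp1LiKO with palmitate, and not well above background in control with palmitate. It was 0.98 higher in Drp1LiKO without palmitate, just under 2-fold, and at least 1.23-fold higher with it.

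Of the growth factor receptors, Kdr, the main signalling receptor for VEGF on endothelium, read −2.81 in control, −0.37 in Drp1LiKO, −2.80 in control with palmitate and −1.05 in Drp1LiKO with palmitate. Both control arrays were at one level, within spot noise of each other, and both Drp1LiKO arrays lay above them. The untreated difference of 2.43 was within the highest 0.606% of 17652 genes, and the difference with palmitate was 1.75. The other two Kdr probes were never well above background.

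Eng, the endothelial co-receptor endoglin for ligands of the BMP and TGF-β family, read −1.80 in control, −0.17 in Drp1LiKO, −1.97 in control with palmitate and −0.47 in Drp1LiKO with palmitate. Its differences of 1.63 and 1.495 changed least in size between the conditions among the 6 genes measured on all arrays, and its second probe was never well above background. Tek, the angiopoietin receptor, had a different pattern from all other members. It was measured in untreated Drp1LiKO at −4.48 and in control with palmitate at −3.50, and on neither of the other arrays. Tek was thus at least 1.20-fold higher in Drp1LiKO without palmitate and at least 2.02-fold lower with palmitate. The raw intensities were 3.78 in control, 24.4 in Drp1LiKO, 37.4 in control with palmitate and 8.05 in Drp1LiKO with palmitate, and its only probe had at most 1 neighbouring spot lit on one array alone.

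**Figure D3:**
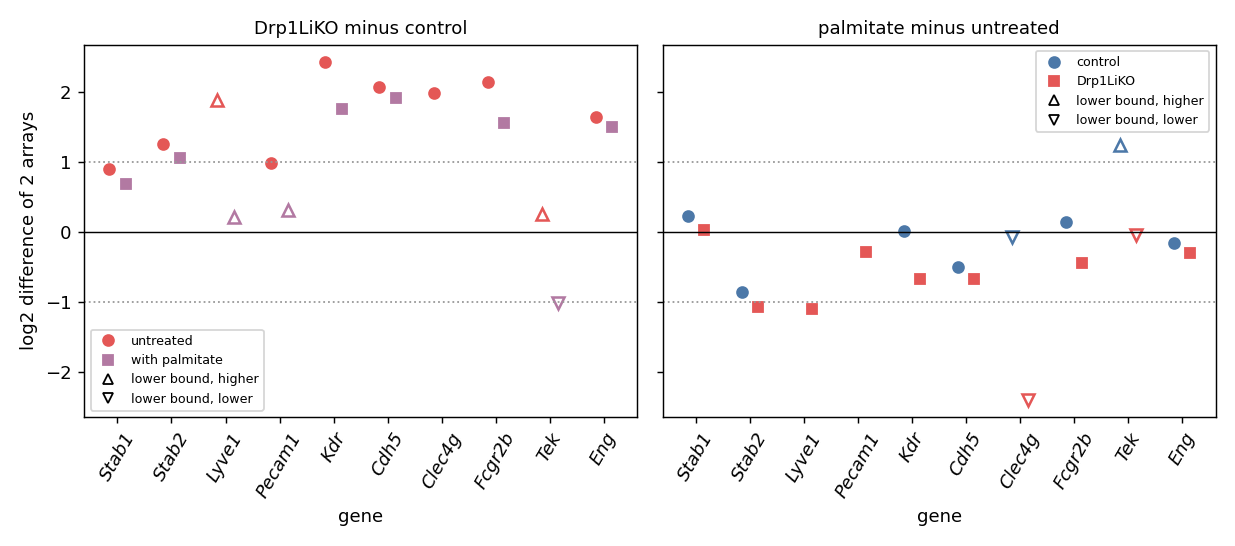
Log2 differences between pairs of single arrays for the 10 endothelial genes, with Drp1LiKO minus control on the left and palmitate minus untreated on the right. Filled symbols are genes measured on both arrays, triangles are lower bounds, and dotted lines mark 2-fold. Genotype differences are positive for each gene shown except Tek with palmitate, while palmitate differences in Drp1LiKO are negative for each gene but Stab1.

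Over the 6 genes measured on all arrays, both Drp1LiKO arrays were above both control arrays in 6 of 6, which was true of 25.7% of 16611 genes measured on all arrays. In 5 of the 6 the difference was at least 2-fold in both conditions, beside 2.35% of those genes. Each of the comparisons rests on the same 4 arrays. The genotype difference was smaller with palmitate in 6 of 6, and its value with palmitate minus that without ran from −0.68 (Kdr) to −0.14 (Eng). The median of these values was −0.20 over the 6 genes and −0.00 over all 16611 genes, of which 50.4% had a lower response in Drp1LiKO. Each such value carries the spot noise of 4 arrays. Those of Eng (−0.14), Cdh5 (−0.16), Stab1 (−0.20) and Stab2 (−0.20) lay within about that noise, and none was tested.

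Palmitate itself left the endothelial genes of control cells mixed. Of 6 genes measured on both control arrays 3 were higher and 3 lower, by −0.87 (Stab2) to 0.22 (Stab1). The Stab2 value is that of its brightest probe, and the second Stab2 probe measured on all arrays stood at 0.42. None was 2-fold apart, a count of 0 in each direction beside 0.85% of 16829 genes for higher and 0.256% for lower, and a single pair of arrays gives no test. Kdr (0.01), Fcgr2b (0.14) and Eng (−0.17) lay within about the spot noise of repeat probes, whereas Cdh5 stood at −0.51. Tek was at least 2.35-fold higher, the 1 of 9 genes past 2-fold when genes measured on at least 1 array are counted (2.83% of 18772 genes), with 0 lower (2.87%).

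In Drp1LiKO cells 7 of 8 genes measured on both arrays were lower with palmitate. The values were −1.11 for Lyve1, −1.07 for Stab2, −0.68 for Kdr, −0.67 for Cdh5, −0.45 for Fcgr2b, −0.30 for Eng and −0.30 for Pecam1, and Stab1 stood at 0.02. Lyve1 and Stab2 were at least 2-fold lower, 2 of 8, beside 0.667% of 17853 genes, and 0 were 2-fold higher, beside 1.75%. Clec4g was 2-fold lower by its lower bound. With genes measured on at least 1 array the counts were 0 of 10 higher (3.93% of 19746 genes) and 4 lower (3.11%). Tek was among the 4 only against a reading at background, being at least 1.03-fold lower by its bound, and with bounds 3 genes were lower. The median was −0.56 beside 0.01 over all genes measured on both arrays. The highest of the 4 arrays was untreated Drp1LiKO for 8 of the 10 genes, and for 5 of the 6 measured on all arrays, beside 24.9% of all genes. Tek was highest in control with palmitate and Stab1 in Drp1LiKO with palmitate.

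The additive limma fit over all 4 arrays, with genotype and palmitate as terms, had 1 residual degree of freedom. It called 0 of 20614 genes (0%) for genotype at an adjusted p under 0.05, and so 0 of the 10 endothelial genes, whereas 5362 genes (26% of those tested) and 7 of the 10 had an unadjusted p under 0.05. Cdh5 was higher in Drp1LiKO by 1.99 with an SE of 0.088 (limma, adjusted p = 0.119), Eng by 1.56 with an SE of 0.084 (limma, adjusted p = 0.119) and Stab2 by 1.15 with an SE of 0.098 (limma, adjusted p = 0.121), each in 2 of 2 conditions. For palmitate it also called 0 genes and 0 members, with 1995 genes (9.68%) and 2 members at an unadjusted p under 0.05, which were Stab2 at −0.97 and Cdh5 at −0.59. The residual of a gene in this fit holds only the difference between the palmitate responses of the genotypes. No SE or p-value from the fit, in any setting, thus measures the spread between animals or cultures. The Stab2 values of the fit are those of its brightest probe, and in control the sign of its palmitate difference depended on the probe. Other settings of this fit called genes. With an intensity trend in the variance these were 7 of 10 members for genotype (26% of genes) and 1 for palmitate, Stab2 (0.902% of genes). Where only probes measured on all arrays were kept, they were 6 of 6 members for genotype (limma, adjusted p from 0.0143 for Cdh5 to 0.0283 for Stab1, beside 15.6% of 16611 genes).

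The ligands and targets of the receptors were read from a list. Of 18 such genes on the array 16 were measured, and 15 were measured on both untreated arrays, of which 1 was at least 2-fold higher and 0 lower, a share near that over all genes (4.46% higher and 3.34% lower), with a median of 0.06. With palmitate it was again 1 of 15, with a median of −0.11. That gene was Pgf, a ligand of another VEGF receptor, which read −1.52 in control, 1.02 in Drp1LiKO, −1.93 in control with palmitate and 0.91 in Drp1LiKO with palmitate. Vegfa, the principal ligand of Kdr, differed by 0.77 and 0.82 between genotypes without and with palmitate, Vegfb by 0.85 and 0.68, Vegfc by 0.19 and 0.55 and Figf, the gene of VEGF-D, by 0.15 and 0.79. All of these stayed under 2-fold. The Tek ligand Angpt2 differed by 0.42 and 0.20, and Angpt1 was not well above background on any array.

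Gdf2, which encodes the endoglin ligand BMP9, was well above background on the Drp1LiKO arrays alone, at −4.12 and −3.42, at least 1.54-fold and at least 1.68-fold higher than in control. Bmp6 differed by 0.02 and −0.50, Tgfb1 by −0.46 and −0.36, and Bmp10 was never measured. Among the partner receptors, Tgfbr1 differed by −0.38 and −0.15, Tgfbr2 by 0.06 and 0.16 and Bmpr2 by −0.54 and −0.34. The BMP target genes Id1 (−0.60 and −0.68) and Id3 (−0.63 and −0.43) were lower in Drp1LiKO in both conditions, under 2-fold, and the inhibitory Smads stood at 0.03 and −0.18 (Smad6) and at 0.12 and −0.11 (Smad7). Most of these genes are transcribed in hepatocytes and other liver cells as well, so their levels are not endothelial readings.

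Other endothelial genes and markers of other cells were read from lists chosen by function. The shares to set beside their counts are those over all genes measured on both arrays, 4.46% at least 2-fold higher and 3.34% lower without palmitate, and 3.09% and 2.47% with it. Of 24 pan-endothelial genes 20 were measured on both untreated arrays, and 10 of these were at least 2-fold higher in Drp1LiKO and 0 lower, with a median of 1.08. With palmitate 8 of 18 were at least 2-fold higher and 1 was lower, with a median of 0.47. Ptprb, the endothelial phosphatase that acts on Tek, read −3.52, −0.76, −3.43 and −1.41 in the order control, Drp1LiKO, control with palmitate and Drp1LiKO with palmitate. The adhesion molecule Icam2 differed by 2.09 and 1.34, the matrix protein Mmrn2 by 1.98 and 2.33 and the guidance receptor Robo4 by 1.93 and 1.68. The lower gene was the co-receptor Nrp1 (−0.93 and −1.03), named after its values were seen, which other cells also express.

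Of 20 further sinusoidal genes 10 were measured on both untreated arrays, 4 of them at least 2-fold higher and 1 lower, with a median of 0.94. With palmitate 1 of 7 was at least 2-fold higher and 0 lower, with a median of 0.26. The 4 were the lectin Clec1b (3.16), the trafficking protein Ehd3 (2.23), the anticoagulant receptor Thbd (2.15) and the receptor Kit (1.89). Of these 4, Thbd (2.66) was the gene measured on both palmitate arrays, and Clec1b was at least 2.31-fold, Ehd3 at least 2.59-fold and Kit at least 2.96-fold higher. The lower gene was Icam1, named after its values were seen, an adhesion molecule that hepatocytes also make under inflammatory stimuli, at −1.38 and −0.99. Of 15 genes measured on at least 1 untreated array, with background values as they are, 7 were 2-fold higher and 2 lower (8.84% and 5.59% of all genes). The second lower gene was Wnt2, well above background in untreated control only. It was named after its values were seen and was at least 1.92-fold lower in Drp1LiKO by its bound. Of the genes of continuous or capillarised endothelium, 4 of 6 measured on both untreated arrays were at least 2-fold higher (Plvap 2.14, Pdpn 1.46, Cd34 1.31, Emcn 1.31), and 3 of 6 with palmitate, with 0 lower in each condition. The others, named after their values were seen, were Vcam1 (−0.40 and −0.08) and Selp (−0.03 and 0.22). Cav1, also named so, was well above background in untreated control only, at least 1.66-fold above Drp1LiKO. Cd34 differed by 2.53 with palmitate, against 1.31 without, which is opposite to the 6 members. The differences of Pdpn (1.99 against 1.46), Thbd (2.66 against 2.15) and Mmrn2 (2.33 against 1.98) were also larger with palmitate. Those of Plvap, Emcn, Ptprb, Icam2 and Robo4 were smaller with it.

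Many markers of Kupffer and stellate cells, though not all, differed between the genotypes as well. Of the Kupffer cell and macrophage markers 13 of 15 were measured, and 8 of 11 measured on both untreated arrays were at least 2-fold higher in Drp1LiKO, with a median of 2.34. With palmitate this was 5 of 8, and 2 of the 8 were below control, under 2-fold. The summed level of this list, in units of the 75th percentile, was 19.9 in control, 47.6 in Drp1LiKO, 25.7 in control with palmitate and 45.5 in Drp1LiKO with palmitate. Cd68 and Itgam made up 58.1% to 67.2% of it, and it was 6.51, 19.5, 8.89 and 19.1 without them. The defining Kupffer cell lectin Clec4f was well above background on the Drp1LiKO arrays alone, at −2.35 and −3.54. Cd5l (2.84 and 1.75), Adgre1 (2.44 and 2.10) and Marco (2.44 and 1.61) were higher in both conditions. C1qc was 2.72 higher without palmitate and at least 6.93-fold higher with it. Csf1r (0.59 and 0.42), Ptprc (0.16 and −0.02) and Itgam (0.02 and −0.36), named after their values were seen, stayed under 2-fold.

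Of the stellate cell markers 9 of 11 were measured, and 3 of 5 measured on both untreated arrays were at least 2-fold higher, with a median of 1.11. The 3 were Dcn (4.19), Col1a2 (3.02) and Reln (1.11). Col1a1 (0.94) and Acta2 (0.22), the latter named after its values were seen, stayed under 2-fold. With palmitate 2 of 4 were at least 2-fold higher and 0 lower, with a median of 1.61. Lrat, which defines the vitamin A storing cell, was well above background in untreated Drp1LiKO only. The summed level of the stellate list was 45.2, 62.6, 46.5 and 59.3 in the same order, of which Acta2, an actin of contractile cells, made up 77.6% to 97.6%, and it was 1.07, 11.04, 1.23 and 13.3 without Acta2. That of the 10 endothelial genes was 1.82, 5.49, 1.82 and 3.94. Both lists and the endothelial genes were thus higher on each Drp1LiKO array than on each control array, and the part of these cell types in the endothelial values was not tested.

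The summed level of the hepatocyte list was 1327, 1321, 1312 and 1349, of which Serpina1a and Alb made up 85.1% to 87.4%, so that it says little of the other members. Its median difference was 0.24 without and 0.28 with palmitate, Alb differed by 0.20 and 0.28, and 2 of 11 genes were at least 2-fold higher in untreated Drp1LiKO, Cyp3a11 by 4.69-fold and Tat by 2.83-fold. With palmitate 3 of 11 were at least 2-fold higher, and 0 were 2-fold lower in either condition. Cps1 differed by 0.94 and 1.12, and Cyp2e1 by −0.66 and −0.72. The bile duct marker Krt19 differed by −0.37 and −0.40, and 4 of 6 cholangiocyte markers were measured, with 0 of 3 measured on both untreated arrays at least 2-fold apart. Spp1 differed by −0.60 and −0.40, and Sox9 by 0.45 and 0.21. Of 6 lymphocyte markers 4 were measured. The T cell marker Cd3e differed by −0.09 and −0.21, and the other 3, named after their values were seen, were each well above background on 1 Drp1LiKO array alone. Cd3d was at least 10.2-fold higher than control without palmitate, with 8 of the 24 spots around its spot lit on that array alone, beside a 99th percentile of 4. With palmitate the B cell markers Cd79a and Ms4a1 were at least 3.11-fold and at least 1.38-fold higher, and the part of these cells in the endothelial values was not tested.

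**Figure D4:**
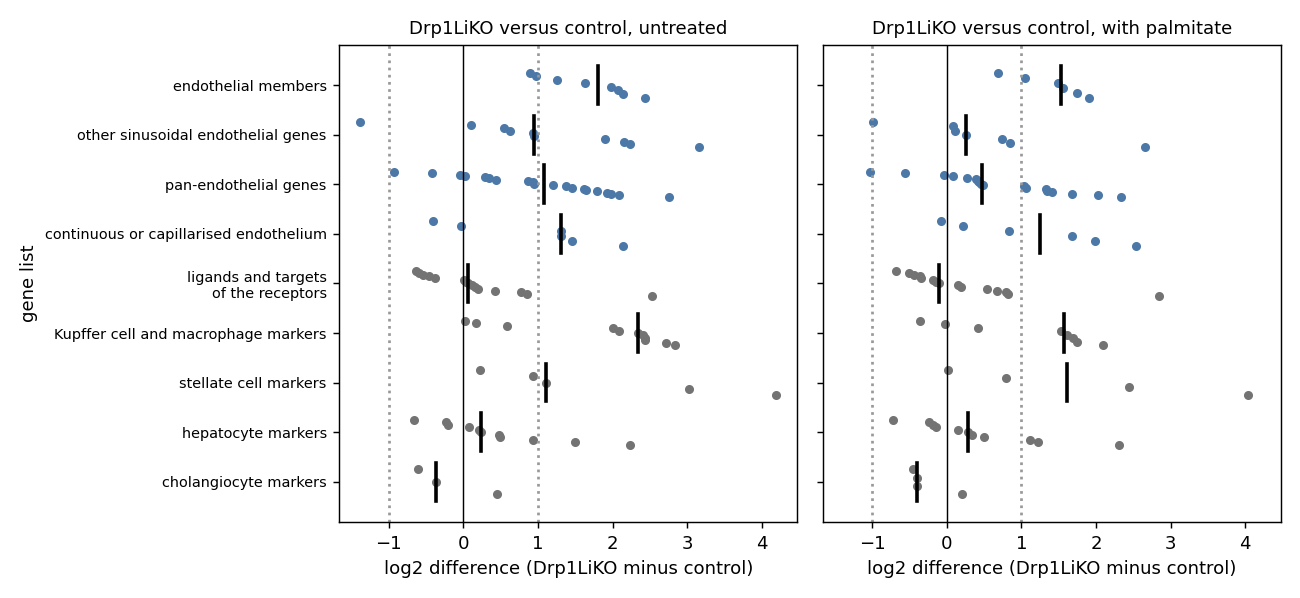
Log2 difference between genotypes, Drp1LiKO minus control, for each gene measured on both arrays, by gene list, without palmitate on the left and with palmitate on the right, with 1 array per group. Bars are medians and dotted lines mark 2-fold. The endothelial members (median 1.80 and 1.53) and the Kupffer cell list (2.34 and 1.57) lie to the right of the hepatocyte list (0.24 and 0.28) and of the ligands and targets (0.06 and −0.11).

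The genes whose 4 levels, centred on their own mean, lay nearest to the median profile of the 6 members measured on all arrays were Myl9, Ccdc80, Gimap6, Serpinb9f and She, at root mean square distances of 0.061 to 0.086 log2 units over the 4 arrays, taken among genes measured on all arrays and outside all lists. Their untreated genotype differences were 1.99, 1.99, 1.69, 1.84 and 1.73. Of the members themselves Eng was nearest to that profile, at 0.106, and Stab1 farthest, at 0.522. With 4 points such a distance describes these arrays only.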

How the data were processed

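RNA of 4 cultures was labelled with Cy3 and hybridised to 1-colour Agilent arrays. The deposited files are linear spot intensity values, background-subtracted by Feature Extraction 10.7.1.1 per the file headers (9.5.1.1 in the submitters' processing notes). A further intensity table of the authors kept the rank order of each array and nearly the same median on all 4 (18.1). It was used as an alternative. Labels and methods name different RNA kits. Groups were taken from the labels.

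Non-control spots without outlier flags were averaged per probe, and log2 processed signal minus the 75th percentile of the array was computed, so a change shared by most transcripts is not visible. Each gene was represented by its brightest probe measured on at least 1 array and called at 2-fold. Single pairs of arrays have no test. The additive model was fitted with limma 3.58.1 in R 4.3.3 (two-sided, Benjamini-Hochberg adjusted over all genes); tables and figures were made with Python 3.11.15, pandas 2.3.3 and matplotlib 3.10.9. Alternatives were other scalings, normexp (offset 50), other probe rules, filters and a 1.5-fold threshold.

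Named genes were all members, all measured ligands and targets, up to 4 genes per other list with the largest untreated difference between genotypes among those measured on both untreated arrays, the defining markers, the 5 genes nearest in pattern, Dnm1l and Gapdh. Members and lists were chosen with earlier results of these data known. The number of arrays limits the precision.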

Additional observations from a re-analysis of the deposited data

Results flagged for a closer look

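With scaling to the 75th percentile, the palmitate responses of 3 endothelial genes had opposite signs in the genotypes, and none of these differences was tested, since each group has 1 array. For Kdr the control response was 0.01 and the Drp1LiKO response −0.68, and they differed by −0.68. The sign of the Kdr control response was not stable, at −0.05 under centring on the array median and −0.01 under quantile scaling and in the authors' table, the same sign as in Drp1LiKO. For Fcgr2b it was 0.14 and −0.45, and they differed by −0.59. In control, both responses were of the size of spot noise. For Tek the unfiltered log2 values gave responses of 3.50 and −1.39, which differ by −4.89, and likewise genotype differences of 2.53 without and −2.36 with palmitate, which differ by −4.89. Tek was well above background on 2 of the 4 arrays, so these sizes rest on values at background.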

How the results depend on the processing

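No analysis by replicate pairs was made, since each group has 1 array. The additive limma fit compares the genotypes within slide. Of 332 alternative values of single genes and comparisons, 315 kept their side of 2-fold, 16 fell below it and 1 rose past it (Pecam1, at 1.01). Of the 16, 11 fell under normexp. Differences already under 2-fold could not fall below it, so the 315 are not a count of calls that were kept. None of the values past 2-fold changed sign, whereas 3 smaller values did. The palmitate difference of Kdr in control, 0.01, turned to −0.05 under centring on the array median and to −0.01 under quantile scaling and in the authors' table. Counts below are of genes measured on at least 1 array (8 higher without palmitate, 6 higher and 1 lower with it, and for palmitate 1 higher in control and 4 lower in Drp1LiKO). With normexp, whose offset shrinks dim differences by construction, the median genotype difference was 0.95 without palmitate (2.02 otherwise) and 0.59 with it (1.495 otherwise). The counts were then 5 higher without palmitate, 3 higher and 0 lower with it, 0 higher with palmitate in control and 1 lower in Drp1LiKO. Requiring both arrays well above background gave 0 lower between genotypes with palmitate, 0 higher with palmitate in control and 2 lower in Drp1LiKO, and at 1.5-fold 2 genes were lower with palmitate in control. Stab2 with palmitate was 0.91 under centring on the array median, 0.87 as the mean of its probes and 0.52 under normexp, all under 2-fold. In limma, an intensity trend called 5355 genes and 7 members for genotype and 186 genes and 1 member for palmitate, and keeping probes measured on all arrays called 2586 genes and 6 members for genotype. Quantile scaling called 0, as in the report, with 5336 genes at an unadjusted p under 0.05 for genotype. Low signal limits Lyve1, Clec4g, Tek and Pecam1, which lay near background on at least 1 array.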

Other observations

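Among the macrophage markers the palmitate responses did not run in 1 direction. Marco, a scavenger receptor of macrophages, was 12.1-fold higher with palmitate in control and 6.82-fold higher in Drp1LiKO. Cd5l, a secreted macrophage protein, read −1.45 in control and −3.44 in control with palmitate, and 1.38 and −1.69 in Drp1LiKO. These are single arrays, without a test.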
